A study of Mus musculus with 12 samples.

Results

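The 10 genes described here lie, in whole or in part, on the downstream side of annotated copies of spliceosomal small nuclear RNA (snRNA) genes. That part begins within 10 kb of the copy's 3′ end. Of the 47517 genes of the deposited table, these 10 were chosen by the measured rise of the neighbouring copy in Cre-positive mouse embryonic fibroblasts given 4-hydroxytamoxifen (4-OHT), against ethanol. Tex14, D230017M19Rik, Rdm1, Kiss1r, Arl4d and Cnn2 are transcribed on the same strand as the copy, and Slfn14, Parp16, Hhat and R3hdm4 on the opposite strand. The values of that comparison are therefore given as a description with no test for the genes or the copies.

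RNA was measured in 12 libraries, 2 in each of 6 groups. The cells carry floxed Ssb1 and Ssb2 alleles in every group, the controls included, come from C57BL/6 embryos at E13.5, and were immortalised with SV40 large T antigen. The Cre-positive groups carry RosaCreERT2, a Cre recombinase that 4-OHT activates, and were given 4-OHT for 5 days, ethanol (the vehicle) for 5 days, or nothing. The Cre-negative groups, without the recombinase, had the same 3 treatments. Nothing in the labels says whether the 2 libraries of a group came from separate embryos or cultures, so p-values measure only the spread between these libraries.

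Most spliceosomal snRNAs (U1, U2, U4 and U5) are made by RNA polymerase II and U6 by RNA polymerase III. The Integrator complex cuts the nascent polymerase II transcript just past the snRNA. Ssb1 and Ssb2 are single-stranded DNA-binding proteins of complexes that share a subunit with Integrator. When an snRNA transcript is not cut, RNA polymerase II is known to be able to continue into the DNA beyond. Mammalian genomes hold many snRNA copies, and reads of near-identical copies are hard to assign to 1 of them.

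Both targets checked the labels. Nabp2, the gene of Ssb1, had 4.84 and 5.09 CPM (counts scaled to the library's TMM-adjusted total) in Cre-positive cells after 4-OHT, against 19.8 and 22.6 after ethanol. Nabp1, the gene of Ssb2, had 3.4 and 3.96 CPM with 4-OHT against 14.5 and 15.9 with ethanol. Their log2 fold changes were -2.10 ± 0.0942 (SE) and -2.05 ± 0.104. The totals of the 12 libraries ran from 20201855 to 36367012 counts. Fibroblast markers were abundant in every library, with a summed level of 6664 to 8750 CPM over 10 genes, although the fibroblast surface marker Thy1 was at or near 0 in the Cre-positive 4-OHT and ethanol libraries.

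The snRNA copies beside the 10 genes are of the U1, U2, U5 and U6 classes. Sequences are shown for the U2 and U1 copies on which the results turn, because copies that rose and copies that did not often differ at few bases. They are GENCODE M21 transcripts on GRCm38, written 5′ to 3′ as DNA. Capitals mark the bases that differ from the first, abundant copy of each set, and positions count from 1 at the copy's 5′ end. The U2 copies Gm25939, Gm23472 and Gm24497 lie on chromosome 1 in or beside D230017M19Rik, at chr1:72255008-72255198, chr1:72236946-72237136 and chr1:72244213-72244403, and Gm23849 lies beside Rdm1 at chr11:101627366-101627556, all on the plus strand.
Gm25939: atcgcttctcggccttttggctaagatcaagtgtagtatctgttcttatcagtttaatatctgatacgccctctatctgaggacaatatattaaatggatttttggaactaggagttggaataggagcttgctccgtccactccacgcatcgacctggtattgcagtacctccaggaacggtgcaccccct
Gm23472: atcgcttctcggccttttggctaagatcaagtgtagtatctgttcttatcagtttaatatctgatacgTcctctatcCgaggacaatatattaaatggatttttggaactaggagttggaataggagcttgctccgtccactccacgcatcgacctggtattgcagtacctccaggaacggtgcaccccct
Gm24497: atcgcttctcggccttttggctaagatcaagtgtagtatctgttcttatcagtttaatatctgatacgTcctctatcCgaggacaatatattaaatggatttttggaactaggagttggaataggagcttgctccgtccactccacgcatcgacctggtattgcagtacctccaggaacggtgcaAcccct
Gm23849: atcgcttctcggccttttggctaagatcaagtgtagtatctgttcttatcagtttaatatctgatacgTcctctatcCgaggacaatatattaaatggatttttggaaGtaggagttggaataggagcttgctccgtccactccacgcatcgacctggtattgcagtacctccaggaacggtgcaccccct

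Relative to Gm25939, Gm23472 carries C69T and T78C, Gm24497 carries these and C186A, and Gm23849 carries these and C109G. Gm23444, beside Slfn14, is identical to Gm23472, and Rnu2-10, beside Arl4d, is identical to Gm23849. T78C was present in 8 of the U2 copies tested, with log2 fold changes of 0.22 to 4.40 in Cre-positive cells given 4-OHT against ethanol. The other 4, without T78C, had -0.67 to 0.34. The match was not complete: the lowest of the 8, Gm23971, has the same sequence as Gm23849 and Rnu2-10. No other position was compared in this way. The values are those by which the copies beside the genes were chosen, so the match is a description only.

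The U1 copies Rnu1a1 (chr11:87422867-87423030) and Gm22068 (chr11:87426716-87426879) lie on the plus strand inside Tex14. They have 1 common sequence, which differs only by C60T from the most abundant U1 copy measured, Gm22513 (chr12:54696782-54696945, plus strand). Gm22513 had 172 and 161 CPM in Cre-positive cells with 4-OHT, against 243 and 229 with ethanol.
Gm22513: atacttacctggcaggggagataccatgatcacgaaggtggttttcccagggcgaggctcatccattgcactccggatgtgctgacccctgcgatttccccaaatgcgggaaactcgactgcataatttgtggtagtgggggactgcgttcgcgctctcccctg
Rnu1a1: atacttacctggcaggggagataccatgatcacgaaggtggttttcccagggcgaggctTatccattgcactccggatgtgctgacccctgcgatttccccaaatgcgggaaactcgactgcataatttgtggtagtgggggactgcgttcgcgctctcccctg

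The U5 copy Gm25313 (chr9:65196572-65196687, minus strand) lies inside Parp16. Gm25099 (chr4:117189942-117190057, plus strand) was the U5 copy whose level moved least, with 26.3 and 26.6 CPM in Cre-positive cells with 4-OHT, against 24.8 and 20.8 with ethanol. A further U5 copy inside Parp16, Rnu5g, and the U5 copy Gm22265 inside Hhat are the other U5 copies beside the 10 genes.

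The U6 copies Gm24019 (chr10:79909195-79909301, plus strand), between Kiss1r and R3hdm4 on one side and Med16 on the other, and Gm26243, beside Cnn2, have the same annotated sequence.

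None of the 10 genes has a GENCODE M21 exon that overlaps its copy. The annotation used for the counting is not given, so whether the counts of genes and copies share positions is not known. The copies lie inside the span of Tex14, D230017M19Rik, Rdm1, Parp16 and Hhat, and outside that of the other 5 genes. From the 3′ end of the nearest copy to the next annotated exon there are 386 bp for Rdm1, 712 bp for Tex14 and 730 bp for D230017M19Rik. For Rdm1 and Tex14 this is the first exon of a transcript. For D230017M19Rik it is a later exon of a transcript that starts upstream of the copy. The distance is 2972 bp for Cnn2, 7113 bp for Arl4d and 7670 bp for Kiss1r, in each case to a first exon. On the opposite strand it is 751 bp for R3hdm4 and 3422 bp for Slfn14, whose 3′ ends face the copy. It is 1097 bp for the first exon of a Parp16 transcript and 3195 bp for an exon of Hhat. All other exons of Parp16, and many of Hhat, lie on the upstream side of the copy. Kiss1r (chr10:79916971-79922273, plus strand) and R3hdm4 (chr10:79910052-79921208, minus strand) overlap each other. The kit marks strand, but no source used here gives the strand setting of the counting, so reads of these overlapping genes may not be separated.

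**Figure D1:**
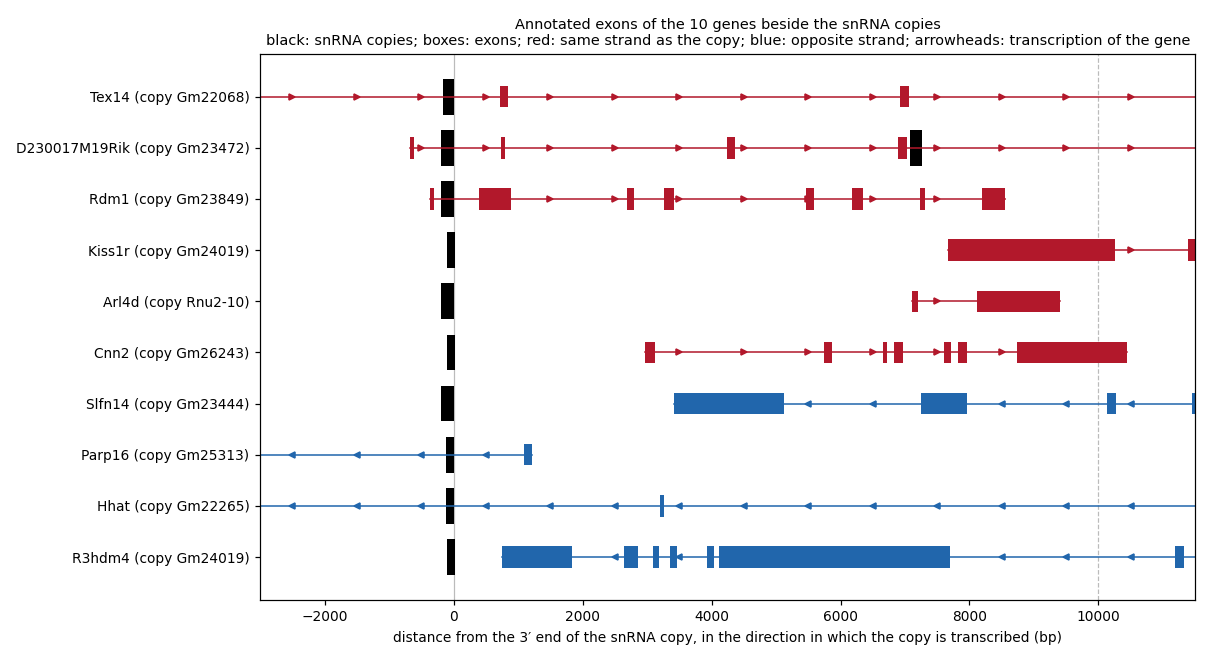
Map of the annotated exons (boxes) of each of the 10 genes by distance in bp from the 3′ end of its nearest snRNA copy (black), in the copy's direction of transcription, with genes on the same strand in red and on the opposite strand in blue. The nearest exon of any transcript begins within 1 kb of the copy for Rdm1, Tex14, D230017M19Rik and R3hdm4. The dashed line marks 10 kb.

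The copies themselves were high in the Cre-positive 4-OHT libraries. The 10 U1, U2 and U5 copies had log2 fold changes of 2.17 to 4.40 against ethanol, and the 2 U6 copies had 1.04 and 1.78. Rnu1a1 had 27 and 29.9 CPM with 4-OHT against 2.84 and 3.05 with ethanol in Cre-positive cells. Gm23472 had 9.03 and 8.22 CPM against 0.405 and 0.402, and Gm23849 had 35.7 and 35.5 against 6.34 and 5.23. Gm24019, the U6 copy shared by Kiss1r and R3hdm4, had 1.3 and 1.3 CPM against 0.516 and 0.737. At 1.04 it was the copy just inside the threshold of a 2-fold rise, and the U6 copy Gm26465 was just outside it at 0.95 ± 0.421. Identical copies had unequal levels: with 4-OHT the Cre-positive libraries had 46.5 and 44.7 CPM for Rnu2-10 and 14.7 and 16.4 CPM for Gm23971, so the level of a single copy is uncertain. At the D230017M19Rik locus the abundant U2 copies did not share the pattern. Gm25939 had 272 and 264 CPM with 4-OHT, against 326 and 331 with ethanol in Cre-positive cells, and Gm25360 had 140 and 145 against 155 and 151.

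**Figure D2:**
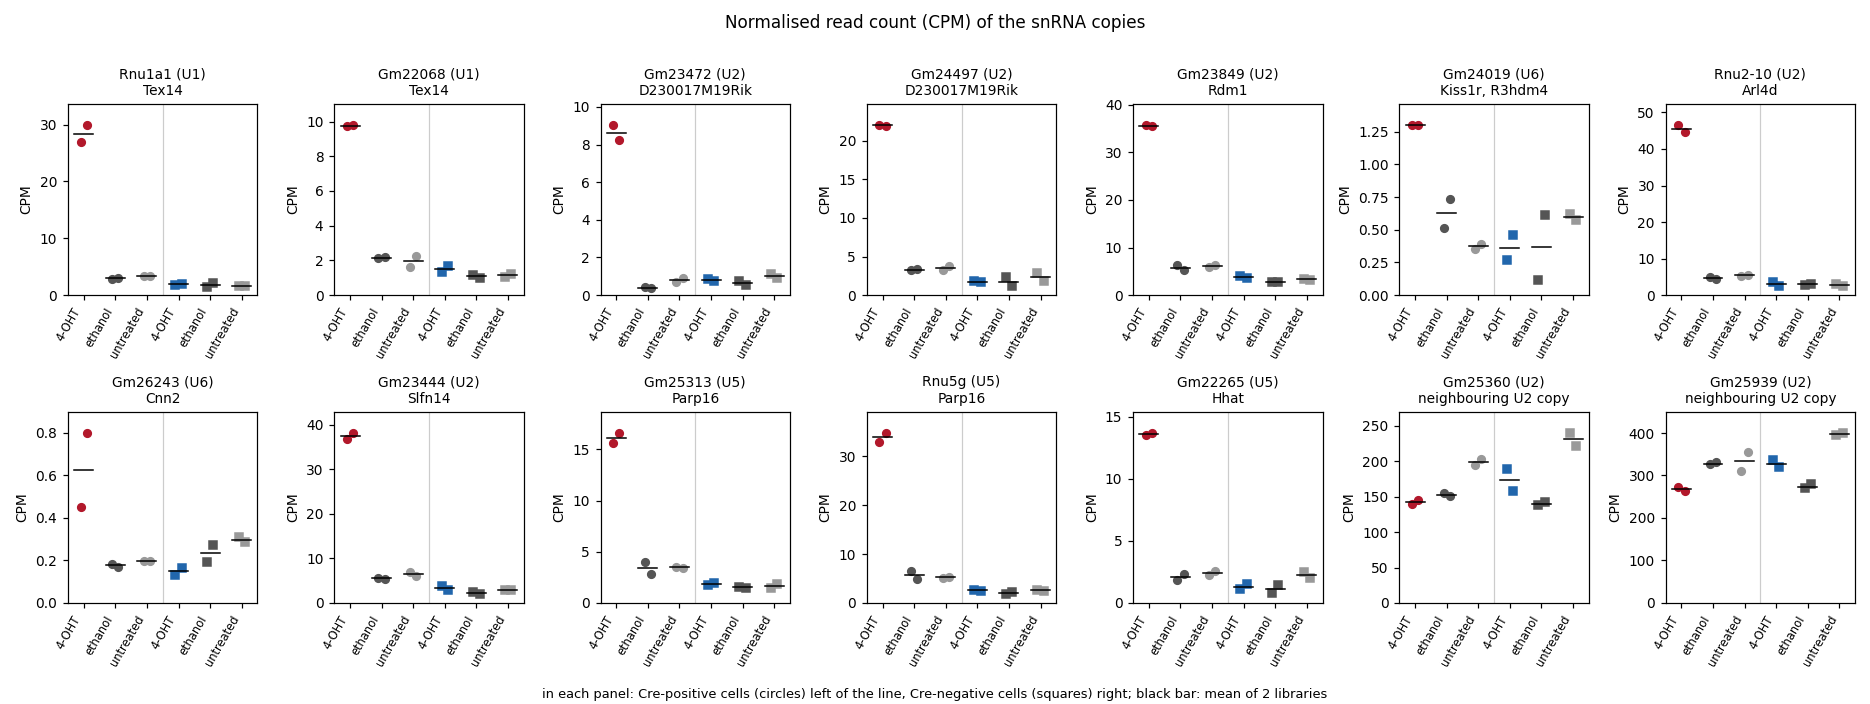
CPM of the 12 copies beside the genes and of 2 abundant U2 copies at the D230017M19Rik locus, per library (points) with the mean of 2 libraries (bars), by treatment in Cre-positive (left) and Cre-negative cells (right). For each of the 12 copies beside the genes both Cre-positive 4-OHT libraries are above the other 10, while Gm25939 and Gm25360 have their highest levels in the untreated Cre-negative libraries.

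Among the genes, Tex14, D230017M19Rik and Rdm1 were higher in both Cre-positive 4-OHT libraries than in any of the other 10 libraries. Slfn14 was lower with 4-OHT than with ethanol, and the other 6 differed less or varied more between libraries. Of all genes tested, 16.8% were above all 10 other libraries in this way, and 38.3% passed the test in either direction between Cre-positive 4-OHT and ethanol. No count of calls is given for the 10 genes as a set there. A count that includes some of them is given with the processing alternatives, as a description only. The 4-OHT and ethanol libraries did not overlap for 6 genes that were higher and 3 that were lower, beside 36.9% and 30.6% of all genes. A log2 fold change of at least 1 was found in Tex14, D230017M19Rik, Rdm1 and Kiss1r, and in 3.67% of all genes. The median log2 fold change was 0.447 over the 10 genes and 0.026 over the 17609 genes tested. All 10 passed the filter on low counts, also when the Cre-positive 4-OHT libraries were left out of it.

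**Figure D3:**
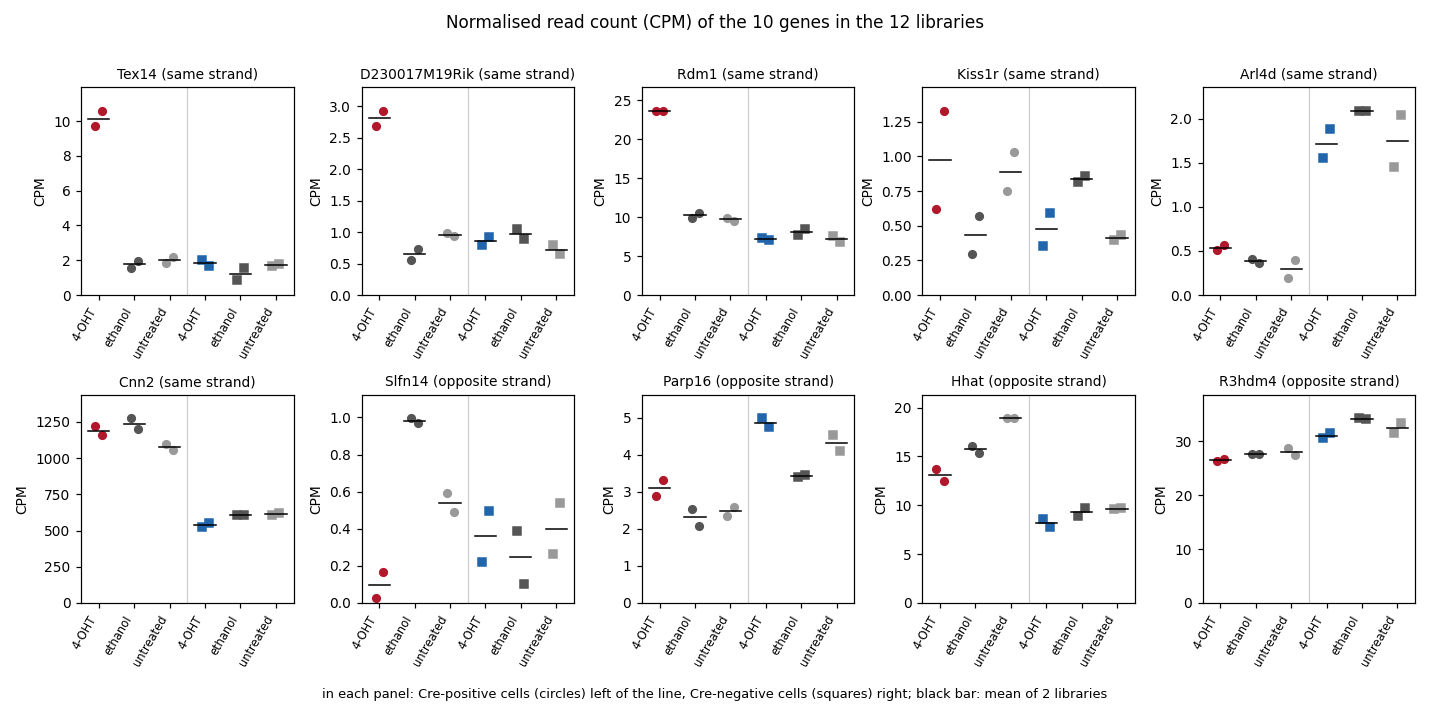
CPM of the 10 genes per library (points) with the mean of 2 libraries (bars), by treatment in Cre-positive (left of the line) and Cre-negative cells (right). Tex14, D230017M19Rik and Rdm1 stand above all other libraries in the Cre-positive 4-OHT group, whereas Arl4d, Cnn2, Parp16, Hhat and R3hdm4 are set apart mainly by genotype.

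Tex14 (chr11:87405065-87555823, plus strand) encodes a protein of the intercellular bridges between germ cells and is known mainly from the testis. It had 9.71 and 10.6 CPM in Cre-positive cells after 4-OHT, 1.58 and 1.98 after ethanol, and 1.85 and 2.21 without treatment. The Cre-negative libraries had 2.03 and 1.68 CPM after 4-OHT, 0.892 and 1.54 after ethanol, and 1.67 and 1.76 without treatment. No library outside the Cre-positive 4-OHT group exceeded 2.21 CPM, and the log2 fold change against ethanol was 2.50 ± 0.16 (SE). Of 19 germ cell markers only Tex15 was abundant enough to test, at -0.06 ± 0.252 (log2, adjusted p 0.889), and Dazl, Stra8 and Tnp1 were at 0 in all 12 libraries. The summed level of the 19 markers was 2.63 and 2.66 CPM with 4-OHT and 2.21 and 2.58 with ethanol in Cre-positive cells. Relative to the copies, Tex14 had 26.4 and 26.7 counts for each 100 counts of Rnu1a1 and Gm22068 with 4-OHT, and 31.9 and 37.8 with ethanol. Mtmr4, the next tested gene beyond Tex14 on that side, lies 165283 bp past the copy Gm22068. It did not pass the test at -0.06 ± 0.0409 (adjusted p 0.243).

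D230017M19Rik (chr1:72236465-72274869, plus strand) is annotated as a long intergenic noncoding RNA. It had 2.69 and 2.93 CPM in Cre-positive cells after 4-OHT, 0.553 and 0.737 after ethanol, and 0.983 and 0.934 without treatment. Cre-negative cells had 0.795 and 0.925 CPM after 4-OHT, 1.05 and 0.889 after ethanol, and 0.793 and 0.645 without treatment. No library outside the Cre-positive 4-OHT group exceeded 1.05 CPM. The log2 fold change was 2.10 ± 0.228 against ethanol but 1.54 ± 0.223 against untreated cells, which share the 4-OHT libraries. The gene moved less than its copies: it had 8.66 and 9.72 counts for each 100 counts of Gm23472 and Gm24497 with 4-OHT, and 15.3 and 19.3 with ethanol. Pecr, the next tested gene on that side, overlaps the span of D230017M19Rik on the opposite strand, from 14764 bp past the copy Gm24497. Reads of these overlapping genes may not be separated. The log2 fold change of Pecr was 0.09 ± 0.145 (adjusted p 0.655).

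The RefSeq promoter window of D230017M19Rik is shown because it overlaps the region just upstream of a U2 copy. It spans chr1:72243743-72244042 (plus strand, GRCm38.p6). Capitals mark an octamer, the element typical of the distal part of snRNA promoters.
D230017M19Rik promoter: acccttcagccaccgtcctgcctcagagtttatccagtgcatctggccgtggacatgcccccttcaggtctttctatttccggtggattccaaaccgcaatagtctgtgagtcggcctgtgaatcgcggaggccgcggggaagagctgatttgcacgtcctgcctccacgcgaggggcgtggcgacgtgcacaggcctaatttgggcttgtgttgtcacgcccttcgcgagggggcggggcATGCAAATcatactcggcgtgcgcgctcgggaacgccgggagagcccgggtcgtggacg

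The octamer starts 229 bp upstream of the first base of Gm24497, on the same strand. The search was for ATGCAAAT on either strand (ATTTGCAT). It was found in 1 of the 9 genes with a window and in 570 of 32851 promoter windows, or 1.74%. No other window lies just upstream of a copy, and the regions just upstream of the other copies were not read. The match is a description of the letters only.

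Rdm1 (chr11:101627195-101636100, plus strand) encodes a protein with a RAD52 motif, named after the recombination factor Rad52. It had 23.7 and 23.7 CPM in Cre-positive cells after 4-OHT, 9.91 and 10.6 after ethanol, and 9.91 and 9.53 without treatment. Among Cre-negative libraries the values were 7.37 and 7.07 CPM after 4-OHT, 7.76 and 8.45 after ethanol, and 7.53 and 6.81 without treatment. The 2 Cre-positive 4-OHT libraries were equal to the digits given, and the next highest library had 10.6 CPM. The log2 fold change was 1.21 ± 0.0793 against ethanol and 1.28 ± 0.0833 against untreated cells. The copy Gm23849 moved more, and Rdm1 had 66.5 and 66.9 counts for each 100 of the copy with 4-OHT, against 156 and 203 with ethanol. Of 7 other RAD52 and recombination mediator genes, 2 were higher and 2 lower in this comparison. Rad52 was higher at 0.55 ± 0.084 (adjusted p 2.6e-05) and Rad51c at 0.57 ± 0.0932 (adjusted p 6.13e-05).

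Kiss1r (also on the plus strand) encodes the kisspeptin receptor of the reproductive axis. It had 0.623 and 1.33 CPM in Cre-positive cells after 4-OHT, 0.295 and 0.57 after ethanol, and 0.747 and 1.03 without treatment. The groups with 4-OHT and ethanol did not overlap, but the difference rested on 22 and 40 counts against 8 and 17. The log2 fold change was 1.12 ± 0.401 against ethanol and 0.12 ± 0.366 against untreated cells. Without 4-OHT library 12 the value against ethanol was 0.50, and without ethanol library 3 it was 0.72, while without ethanol library 4 it was 1.68. In Cre-negative cells it had 0.353 and 0.594 CPM after 4-OHT, 0.815 and 0.855 after ethanol, and 0.397 and 0.43 without treatment, so ethanol was the highest group there and the lowest in Cre-positive cells. Kiss1, the gene of the ligand, was at 0 in all 12 libraries, and Gnrh1 was the single other gene of the kisspeptin list tested, at -0.06 ± 0.257 (adjusted p 0.881).

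Arl4d (chr11:101665541-101667832, plus strand) encodes a small GTPase of the ADP-ribosylation factor family. It had 0.51 and 0.566 CPM in Cre-positive cells after 4-OHT, 0.405 and 0.369 after ethanol, and 0.197 and 0.393 without treatment. Every Cre-negative library was higher, with 1.55 and 1.88 CPM after 4-OHT, 2.09 and 2.09 after ethanol, and 1.45 and 2.04 without treatment. The log2 fold change with 4-OHT against ethanol in Cre-positive cells was 0.47 ± 0.38, little more than its error, while the copy Rnu2-10 moved by 3.27 ± 0.0978. Arl4d had 1.1 and 1.27 counts for each 100 counts of Rnu2-10 with 4-OHT, and 7.97 and 8.46 with ethanol. Of its 2 relatives tested, Arl4c was lower at -0.44 ± 0.0421 (adjusted p 5.92e-08), and Arl4a had -0.15 ± 0.1 (adjusted p 0.26).

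Cnn2 (chr10:79988584-79996062, plus strand) encodes calponin 2, which binds actin. It had 1219 and 1162 CPM in Cre-positive cells after 4-OHT, 1275 and 1200 after ethanol, and 1095 and 1055 without treatment, and the 4-OHT and ethanol groups overlapped. The Cre-negative levels were 524 and 555 CPM after 4-OHT, 604 and 605 after ethanol, and 609 and 618 without treatment. Its log2 fold change with 4-OHT against ethanol in Cre-positive cells was -0.06 ± 0.0399, beside 1.78 ± 0.459 for the U6 copy. Cnn1, the smooth muscle calponin, was higher at 0.46 ± 0.0714 (adjusted p 3.45e-05), and Cnn3 had 0.08 ± 0.0345 (adjusted p 0.0887). Of 6 smooth muscle markers, which include Cnn1, 4 were higher and 1 was lower, with a summed level of 5353 and 5387 CPM with 4-OHT and 4797 and 4863 with ethanol. Their part in the values of Cnn2 was not tested. Abca7, the next tested gene beyond Cnn2, was lower at -0.41 ± 0.0551 (adjusted p 4.95e-06).

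Slfn14 (chr11:83275110-83286726, minus strand) encodes a schlafen family endoribonuclease known from platelets and their precursors. It had 0.0283 and 0.166 CPM in Cre-positive cells after 4-OHT, 0.995 and 0.972 after ethanol, and 0.59 and 0.491 without treatment. Cre-negative cells had 0.221 and 0.495 CPM after 4-OHT, 0.388 and 0.103 after ethanol, and 0.264 and 0.538 without treatment. The Cre-positive 4-OHT libraries held 1 and 5 counts, against 27 and 29 with ethanol, and a Cre-negative ethanol library held 3. The log2 fold change was -3.35 ± 0.576, beside 2.77 ± 0.0965 for its copy Gm23444. It was -4.91 without 4-OHT library 12 and -2.53 without 4-OHT library 11. Against untreated Cre-positive cells it was -2.51 ± 0.678, since the ethanol libraries were the highest of all. Of 5 other schlafen genes tested, Slfn9 was higher at 0.19 ± 0.0466 (adjusted p 0.00311) and none was lower. Of 4 erythroid and megakaryocyte markers tested 2 were lower, with a summed level over the 9 listed of 41.3 and 44.7 CPM with 4-OHT and 42.5 and 43 with ethanol, and their part in the values of Slfn14 was not tested. AA465934, the next tested gene beyond Slfn14, had -0.08 ± 0.173 (adjusted p 0.749).

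Parp16 (chr9:65195353-65239224, plus strand) encodes a mono-ADP-ribosyltransferase of the endoplasmic reticulum membrane. It had 2.89 and 3.33 CPM in Cre-positive cells after 4-OHT, 2.54 and 2.08 after ethanol, and 2.36 and 2.6 without treatment. Among Cre-negative libraries the values were 4.99 and 4.76 CPM after 4-OHT, 3.41 and 3.45 after ethanol, and 4.54 and 4.12 without treatment. The 4-OHT libraries were above the ethanol libraries in both genotypes, by 0.43 ± 0.16 (log2) in Cre-positive cells. Of 9 other mono-ADP-ribosyltransferase genes, 4 were higher and 2 lower in Cre-positive cells with 4-OHT against ethanol. Parp10 was higher at 0.75 ± 0.0725 (adjusted p 7.84e-08), and Parp4 was lower at -0.56 ± 0.133 (adjusted p 0.00212).

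Hhat (chr1:192496711-192771223, minus strand) encodes the acyltransferase that attaches palmitate to hedgehog proteins. It had 13.7 and 12.5 CPM in Cre-positive cells after 4-OHT, 16.1 and 15.4 after ethanol, and 18.9 and 18.9 without treatment, the groups not overlapping. The Cre-negative levels were 8.61 and 7.76 CPM after 4-OHT, 8.88 and 9.75 after ethanol, and 9.61 and 9.71 without treatment. The 4-OHT libraries were the lowest in each genotype, and the log2 fold change against ethanol in Cre-positive cells was -0.27 ± 0.0818. Of 4 other hedgehog genes tested, Smo, the signal transducer, was higher at 0.17 ± 0.0405 (adjusted p 0.00243), and none was lower.

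R3hdm4 (minus strand) had 26.4 and 26.8 CPM in Cre-positive cells after 4-OHT, 27.6 and 27.6 after ethanol, and 28.7 and 27.5 without treatment. Cre-negative cells had 30.7 and 31.5 CPM after 4-OHT, 34.3 and 34.1 after ethanol, and 31.5 and 33.5 without treatment. The Cre-positive 4-OHT libraries were the lowest of the 12, with a log2 fold change of -0.05 ± 0.059 against ethanol. Its neighbour Kiss1r, beside the same U6 copy, had 1.12 ± 0.401. Arid3a, the next tested gene beyond both, had -0.09 ± 0.0734 (adjusted p 0.338).

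**Figure D4:**
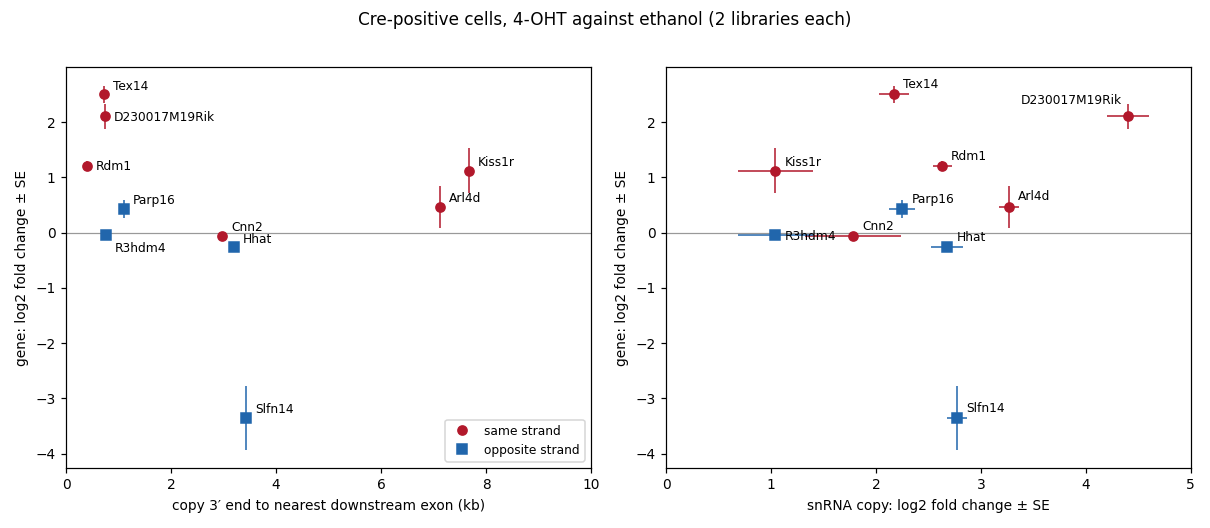
Log2 fold change ± SE of each gene in Cre-positive cells with 4-OHT against ethanol, by distance in kb from the copy's 3′ end to the nearest downstream exon (left) and by the log2 fold change ± SE of that copy (right). Rdm1, Tex14 and D230017M19Rik, the same-strand genes within 1 kb, have 1.21, 2.50 and 2.10, whereas R3hdm4, on the opposite strand at 751 bp, has -0.05.

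Set by strand, the 6 same-strand genes had log2 fold changes of -0.06 to 2.50 with a median of 1.16, and the 4 opposite-strand genes had -3.35 to 0.43 with a median of -0.159. These are values of the comparison by which the copies were chosen, so nothing is read from the difference. The same-strand genes also differed in position: the copy lies inside the span of Tex14, D230017M19Rik and Rdm1 and outside that of Kiss1r, Arl4d and Cnn2. A high copy did not always stand beside a high gene, since Rnu2-10 moved by 3.27 beside 0.47 for Arl4d.

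The 10 genes were all of the tested genes, small RNAs apart, found in whole or in part within 10 kb downstream of risen snRNA copies. Genes below the low-count filter or with a symbol at several loci were left out. The risen copies were the 19 that were at least 2-fold higher with an adjusted p under 0.05. That count takes all annotated snRNA copies, U6 included, and 7 of the 10 lie beside the 17 copies of the classes U1, U2, U5, U7, U11 and U12. On the upstream side of the 19 copies, 5 other genes were tested within 10 kb. Of these Rpl31-ps17, a pseudogene, was lower at -1.26 ± 0.473 (adjusted p 0.0397), with 0.198 and 0.333 CPM with 4-OHT against 0.737 and 0.536 with ethanol. The other 4 did not pass the test: Snx6 had -0.00 ± 0.0504, Med16 0.00 ± 0.0686, Tmem259 -0.10 ± 0.0461 and Grin3b -0.09 ± 0.205. Downstream of the 14 copies of those classes that did not reach this threshold, 1 of 4 same-strand genes was higher and 0 of 3 opposite-strand genes. With all 44 such snRNA copies, U6 included, 16 same-strand genes were tested, of which 6 were higher and 2 lower. Of 18 opposite-strand genes there, 0 were higher and 9 were lower by edgeR's adjusted p. Over all genes the shares were 21.1% higher and 17.2% lower.

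The other comparisons that use the Cre-positive 4-OHT or ethanol libraries share them with the choice of the genes, so only values are given for the 10, beside the share of all genes that passed the test. With 4-OHT against untreated in Cre-positive cells, 39.2% of all genes passed, 21.0% higher and 18.2% lower. Slfn14 was at -2.51 and Hhat at -0.53 there. With ethanol against untreated in Cre-positive cells, 14.9% of all genes passed, 8.11% higher and 6.84% lower, and the 10 genes ranged from -0.99 for Kiss1r to 0.84 for Slfn14. Between the genotypes with 4-OHT, 60.7% of all genes passed, 30.5% higher and 30.2% lower. Cnn2 had 1.14 and Arl4d -1.68 in that comparison, the direction they also had untreated. For the difference of the 4-OHT effects between genotypes, 28.3% of all genes passed, 14.5% higher and 13.8% lower, and the 10 genes ranged from -4.01 for Slfn14 to 2.25 for D230017M19Rik.

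The comparisons that use no Cre-positive ethanol or 4-OHT library can be tested for the 10 genes. With 4-OHT against ethanol in Cre-negative cells, which lack the recombinase, 2 of the 10 passed, beside 5.99% of all genes. Parp16 was higher, at 0.50 ± 0.143 (log2, adjusted p 0.0404) and Cnn2 lower, at -0.16 ± 0.0405 (adjusted p 0.0176), each in the direction of both libraries. Leaving out either Cre-negative ethanol library, or 4-OHT library 5, ended both calls, and that of Parp16 also ended without 4-OHT library 6, with no low-count filter and by DESeq2. DESeq2 called 1 of the 10. Over the 18 alternatives the adjusted p ran from 0.0291 to 0.217 for Parp16 and from 0.000758 to 0.176 for Cnn2. The 3 genes that stood out in Cre-positive 4-OHT libraries did not pass here. Tex14 had 0.57 ± 0.242 (adjusted p 0.183), D230017M19Rik -0.15 ± 0.275 (adjusted p 0.833) and Rdm1 -0.17 ± 0.101 (adjusted p 0.365). By edgeR's unadjusted p under 0.05 there were 4 of the 10, among them Tex14 (p 0.028), higher with 4-OHT as in Cre-positive cells. The 12 copies ranged from -0.63 to 0.51, and none passed. Slfn14 had 0.65 ± 0.61 (adjusted p 0.609), with groups that overlapped.

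With ethanol against untreated in Cre-negative cells, 0 of the 10 passed by edgeR's adjusted p, beside 24.5% of all genes. At an unadjusted p under 0.05 there were 2, Kiss1r at 1.00 ± 0.441 (p 0.0338) and Parp16 at -0.33 ± 0.147 (p 0.0362), and DESeq2 called 0. Of the 12 copies, Gm22265 was lower at -0.98 ± 0.248 (adjusted p 0.00574). The abundant U2 copies at the D230017M19Rik locus were lower as well, Gm25939 at -0.54 ± 0.0475 (adjusted p 2.68e-08) and Gm25360 at -0.72 ± 0.0585 (adjusted p 7.34e-09).

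Untreated cells of the 2 genotypes differed widely, with 49.0% of all genes passing the test and 6 of the 10. Over all genes 24.4% were higher and 24.6% lower, and of the 10 genes 3 were higher and 3 lower. Hhat was higher in Cre-positive cells by 0.97 ± 0.0894 (adjusted p 7.17e-09), Cnn2 by 0.81 ± 0.0405 (adjusted p 2.42e-13) and Rdm1 by 0.45 ± 0.102 (adjusted p 0.000915). Arl4d was lower, at -2.62 ± 0.353 (adjusted p 2.01e-06), Parp16 at -0.80 ± 0.163 (adjusted p 0.000287) and R3hdm4 at -0.21 ± 0.0609 (adjusted p 0.00694). The call for R3hdm4 was lost without untreated Cre-negative library 2 or untreated Cre-positive library 8. The share of the 10 that passed was near that of all genes. Tex14 had 0.23 ± 0.232 (adjusted p 0.45) and D230017M19Rik 0.43 ± 0.301 (adjusted p 0.269). Of the 12 copies 8 were higher in untreated Cre-positive cells, by 0.61 to 1.18, and Rnu1a1 among them by 1.10 ± 0.195 (adjusted p 6.92e-05). The Cre allele and the derivation of the cells cannot be told apart in this comparison.

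**Figure D5:**
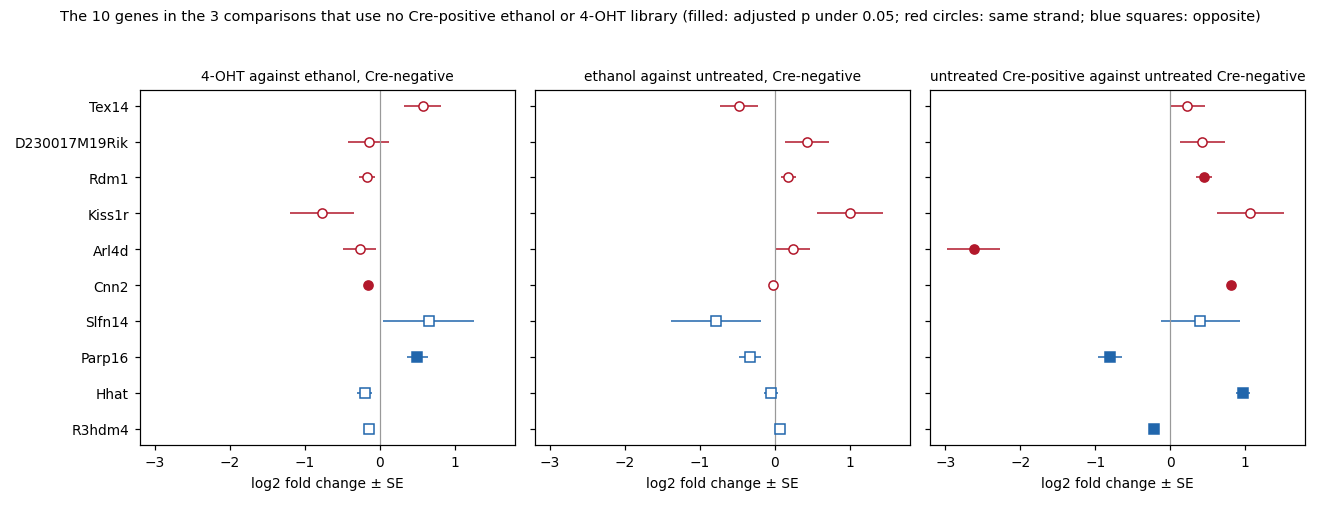
Log2 fold change ± SE of the 10 genes in the 3 comparisons that use no Cre-positive ethanol or 4-OHT library, with filled symbols where the adjusted p is under 0.05. Filled symbols stand for 2 genes in the first panel, 0 in the second and 6 in the third, where Arl4d lies lowest at -2.62.

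The genes most alike in level over the 12 libraries were named by Pearson's correlation of log2 CPM, given also without the 2 Cre-positive 4-OHT libraries. For Rdm1 the closest were Rnpc3, a protein of the minor spliceosome (r = 0.989), Rnu1a1 (0.988) and Rnu2-10 (0.986). Without the Cre-positive 4-OHT libraries these were 0.918, 0.89 and 0.878 over 10 libraries. For Tex14 the closest were Dhx8 (0.972), Ankrd40 (0.97) and Galnt4 (0.963), which without those libraries had 0.722, 0.665 and 0.63. For D230017M19Rik they were E130317F20Rik (0.964), Pop7 (0.954) and Smim7 (0.949), and 0.738, 0.763 and 0.378 without those libraries. Arl4d, set apart by genotype, was most like Pappa (0.991), also without those libraries (0.993). These correlations share libraries and groups, and carry no test.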

How the data were processed

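Total RNA of 12 libraries was read in pairs after ribosomal RNA depletion with a stranded kit, per the labels' protocols. The authors deposited whole-number expected counts, 1 row per symbol. Tools listed in the submitters' processing notes are RSEM 1.2.30, STAR 2.5.2a, cutadapt 1.11 and edgeR, with the build GRCm38. No source used here gives the annotation or the strand setting. All 12 columns were used. Replicate libraries differed by a chi-square per degree of freedom of 2.52 to 5.02, so none was a copy of another.

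In R 4.3.3, edgeR 4.0.16 kept 17609 genes (filterByExpr), scaled by TMM, and fitted 1 mean per group to all 12 libraries. Quasi-likelihood tests were 2-sided, with Benjamini-Hochberg adjustment over all genes and a threshold of 0.05. The model was tested on simulated data. Depth limits precision for genes with few counts. DESeq2 1.42.0, other scalings and filters, left-out libraries, other windows and a joint reference were alternatives. Positions are GENCODE M21, GRCm38, 1-based. Symbols matched 1 gene for 45203 of 47517 rows. snRNA classes were assigned by blastn at 90% identity over 80% of the length. The rule for naming genes takes all 10 genes, their copies, neighbours within 10 kb, the next gene, the targets and up to 4 genes per list. The genes and lists were chosen with earlier results of these data known. The sequences of the U5 and U6 copies and 1 gene of a list are not reported here.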

Additional observations from a re-analysis of the deposited data

Results flagged for a closer look

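In Rdm1, Kiss1r and Arl4d both 4-OHT libraries were above both ethanol libraries in Cre-positive cells and both below in Cre-negative cells. The share of all genes with this pattern was not counted. In Cre-positive cells alone, both 4-OHT libraries were above both ethanol libraries in 36.9% of all genes. Nothing is therefore read from the pattern in these 3 genes. In Cre-negative cells none of these genes passed the edgeR test (adjusted p 0.365, 0.326 and 0.55). The difference between the log2 effects (Cre-positive minus Cre-negative) was 1.38 for Rdm1, 1.89 for Kiss1r and 0.74 for Arl4d. The fit over all genes includes this difference, but for these 3 genes it is a description and no test of it is reported, since the Cre-positive libraries chose the genes. They are listed for the opposite directions alone.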

How the results depend on the processing

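The counts of genes passing the test in Cre-negative cells depended most on the libraries. With 4-OHT against ethanol there were 1054, and 1609 in a fit of the compared libraries alone, and 301 to 1277 with a library left out. With ethanol against untreated there were 2759 to 4531. Of the 10 genes, 2 passed with 4-OHT in Cre-negative cells, 1 with no low-count filter or by DESeq2, and 0 to 2 with a library left out. With ethanol against untreated 1 passed in a fit of the compared libraries alone, and 0 to 1 with a library left out. The median log2 fold change of the 10 genes ranged from 0.1933 to 0.515 with 4-OHT against untreated and from -0.1008 to -0.0014 with ethanol against untreated, both in Cre-positive cells, and from 0.5494 to 0.8789 between genotypes with 4-OHT, leaving out 1 library at a time. With a filter at 1 CPM in 2 libraries the ethanol value was -0.1022, and the difference of the 4-OHT effects was 0.733 in place of 0.4227, since fewer of the 10 passed. Beside risen copies, on either side, the fit called 7 genes, 4 to 6 with a library left out and 3 by DESeq2, where 38.3% of all genes were called. The count of 7 takes only the copies of the classes U1, U2, U5, U7, U11 and U12, so genes beside U6 copies are not in it. Tested there were the 4 same-strand and 3 opposite-strand genes of the 10 that lie downstream, and 1 other gene on each strand upstream. The count includes genes chosen by this comparison, so it is a description and no test of them. For the same reason nothing is read from it beside the 38.3%. Downstream of copies that did not rise 1 gene passed, 0 to 1 with a library left out. It was 2 with no filter, with 5 kb or with 20 kb, and 0 with the stricter filter, the compared libraries alone or DESeq2. It was 17 with all snRNA copies, an alternative chosen after seeing the data. In other cases the cause was not tested. Slfn14 had a log2 fold change of -4.91 without Cre-positive 4-OHT library 12 and -2.53 without library 11, and Kiss1r had 0.50 to 1.68 with a library left out. No paired analysis was possible because the groups share no replicate numbers.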
